A study of Homo sapiens with 179 samples.

Results

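In 179 RNA-seq libraries 5 pairs of near-identical human genes were followed, giving each copy and the sum of the pair: SMN1 and SMN2, SERF1A and SERF1B, CKMT1A and CKMT1B, CCZ1 and CCZ1B, and CBWD5 and CBWD6. These 10 of the 19084 genes measured were selected on measured values: their copies had varied strongly between libraries of the most crowded sequencing lane, or had differed between the deepest and the shallowest lane. Both of those contrasts, and the levels of single copies wherever Lane 1 or Lane 4 is one side, are therefore described here without a test. The RNA came from H1 cells, a human embryonic stem cell line, kept in E8 medium on a Matrigel coating. Libraries made with the LM-Seq protocol were sequenced with 95 samples in Lane 1, 48 in Lane 2, 24 in Lane 3 and 6 in Lane 4. Libraries made with the TruSeq RNA kit formed the groups H1p43 and H1p16, with 3 replicates each and 12 samples per lane. The labels leave p43 and p16 unexplained, and do not say in what respect LM-Seq libraries of the same lane differ. They name no separate cultures for the replicates either, and the p-values below therefore reflect the spread among these libraries, which may be technical.

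Depth followed the number of samples per lane. Lane 1 libraries held between 1040671 and 1539277 expected counts. Lane 2 libraries held between 2005736 and 2739084, those of Lane 3 between 4028607 and 4918577, and those of Lane 4 between 15780078 and 16583048. The totals of H1p43 lay between 29018106 and 35852646, and those of H1p16 between 23680503 and 30628645. An expected count is the number of reads that RSEM, the program the authors used, attributes to a gene, and it need not be whole because a read that fits several genes is divided between them. TPM scales such counts by transcript length and library total, so that levels of different genes can be compared. Markers of pluripotent cells were expressed in every group, 7 of 7, whereas the summed level of 4 endoderm markers did not exceed 2.58 TPM in any library. Other lineages were not at 0: over the groups the summed level of 5 fibroblast or stroma markers lay between 213 and 429.8 TPM, and that of 5 neuroectoderm markers between 145.6 and 372 TPM.

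SMN1 and SMN2 encode the survival motor neuron protein, which with the GEMIN proteins loads the ring of Sm proteins onto spliceosomal small nuclear RNAs. Loss of SMN1 causes spinal muscular atrophy, and SMN2 modifies its severity, because a single base in SMN2 favours skipping of an exon. SERF1A and SERF1B lie in the same duplicated segment of chromosome 5 and encode a small protein that speeds the aggregation of amyloid-forming proteins. CKMT1A and CKMT1B encode the ubiquitous mitochondrial creatine kinase, which makes phosphocreatine from ATP. CCZ1 and CCZ1B encode a partner of MON1, with which it activates the late endosome GTPase RAB7. CBWD5 and CBWD6 belong to a family of COBW-domain GTPases, known as zinc metallochaperones, that also includes CBWD1, CBWD2 and CBWD3.

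Where the models of 2 copies align, only a base at which they differ tells their reads apart. Such bases were few in the GENCODE transcript models on GRCh38. Sequence held by the transcripts of 1 copy alone can also separate reads. The values of SMN1 and SMN2 joined 2 and 4 distinct transcripts, and those of SERF1A and SERF1B 2 each. Only 1 model per gene was compared here. The deposited values were made on hg19, so these models are not the ones counted, and no coordinates were converted. The SMN1 and SMN2 models, 1536 bases each, differed at 2 bases, and 93.3% of all stretches of 50 bases in SMN1 were present unchanged in SMN2. The SERF1A and SERF1B models, 1889 bases each, differed at 1 base, T759C, which lies in the untranslated part, and shared 97.3% of such stretches. The CKMT1A and CKMT1B models, 1779 bases each, differed at 4 bases and shared 89.8%. CCZ1, with 1802 bases, differed from CCZ1B at 4 aligned bases, and 88.6% of its stretches were present in CCZ1B. The CCZ1B model is longer, with 2885 bases, and 54.8% of its stretches were present in CCZ1. CBWD5 differed from CBWD6 at 11 bases over 1791 aligned positions and shared 70.9%. Substitutions are written with the base of the first copy, its position counted from 1 at the 5′ end of that copy's transcript, and the base of the second copy.

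Stretches with coding differences are shown for 4 pairs, because reads over such bases tell the copies apart. They hold every coding difference of SMN and CKMT1, 1 of the 2 of CCZ1 and 2 of the 7 of CBWD5 and CBWD6. Capitals mark the bases that differ. C914T, in exon 8 of the SMN models, is synonymous and is the base for which SMN2 is known, and the first 48 bases of that exon are chr5:70951941-70951988 in SMN1 and chr5:70076521-70076568 in SMN2, both on the plus strand. G1448A and C1478T, both synonymous, lie in exon 9 of the CKMT1 models, at chr15:43698665-43698735 in CKMT1A and chr15:43598851-43598921 in CKMT1B, both on the plus strand. T825C, synonymous, lies in exon 8 of CCZ1, at chr7:5910075-5910115 on the plus strand, and of CCZ1B, at chr7:6814765-6814805 on the minus strand. A617G, which changes the amino acid, and T640C, which does not, lie in exon 5 of CBWD5, at chr9:65690967-65691026 on the plus strand, and of CBWD6, at chr9:41174293-41174352 on the minus strand.
SMN1: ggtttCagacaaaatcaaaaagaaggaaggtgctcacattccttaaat
SMN2: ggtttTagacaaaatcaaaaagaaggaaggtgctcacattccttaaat
CKMT1A: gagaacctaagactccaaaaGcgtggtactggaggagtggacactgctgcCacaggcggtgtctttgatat
CKMT1B: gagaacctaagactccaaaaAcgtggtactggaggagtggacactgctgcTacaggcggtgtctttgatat
CCZ1: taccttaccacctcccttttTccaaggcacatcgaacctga
CCZ1B: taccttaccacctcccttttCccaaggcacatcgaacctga
CBWD5: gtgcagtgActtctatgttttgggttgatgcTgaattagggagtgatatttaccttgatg
CBWD6: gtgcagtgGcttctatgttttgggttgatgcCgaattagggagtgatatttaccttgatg

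Between libraries of Lane 1 the sum of each pair was steadier than its copies. In Lane 1 the SD of log2(TPM + 1) over the 95 libraries was 0.21 for SMN1 and 1.55 for SMN2, and 0.12 for their sum. It was 2.53 for SERF1A and 2.53 for SERF1B, and 0.34 for their sum. It was 2.43 for CKMT1A and 2.80 for CKMT1B, and 0.21 for their sum. It was 0.34 for CCZ1 and 1.82 for CCZ1B, and 0.11 for their sum. The median over the 12607 genes averaging 1 TPM or more in Lane 1 was 0.31, so 3 of these sums spread less than the median gene and the SERF1 sum spread slightly more. CKMT1B ranked 1st of all these genes by its spread and SERF1B ranked 3rd. The CBWD pair was the exception, with an SD of 2.24 for CBWD5, 2.51 for CBWD6 and still 1.86 for their sum. Adding CBWD1, CBWD2 and CBWD3, a sum chosen after the data were seen, brought the SD to 0.14.

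**Figure D1:**
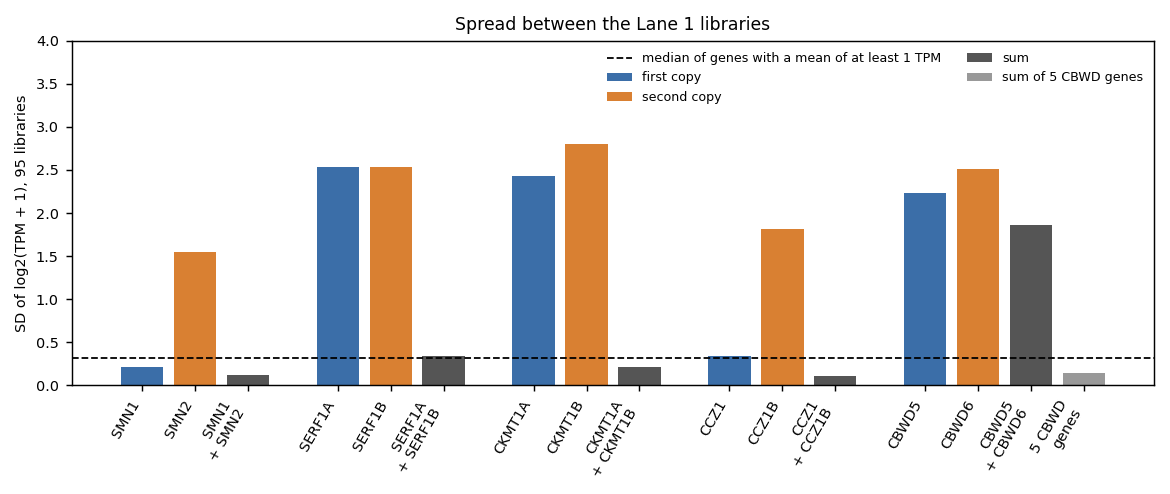
Spread between the 95 libraries of Lane 1, as the SD of log2(TPM + 1) on the vertical axis, for each copy, each pair sum and the sum of 5 CBWD genes. The dashed line is the median of genes averaging 1 TPM or more (0.31); the sums of SMN, CKMT1 and CCZ1 lie below it, the sum of CBWD5 and CBWD6 (1.86) far above it.

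Correlations of the members with other genes describe the same division of counts in another form. Over the 95 libraries of Lane 1 and 12606 other genes averaging 1 TPM or more, the gene with the lowest Pearson correlation was the partner copy for 8 of the 10 members. Correlations of log2(TPM + 1) between partners were -0.98 for SERF1A and SERF1B, -0.66 for CCZ1 and CCZ1B, -0.62 for SMN1 and SMN2 and -0.59 for CKMT1A and CKMT1B. Over the 48 libraries of Lane 2 they were -0.98, -0.76, -0.55 and -0.53. CBWD6 was lowest with CBWD3 (-0.50 in Lane 1 and -0.51 in Lane 2), and CBWD5 with OPTN (-0.40 in Lane 1 and 0.04 in Lane 2). The 2 highest correlations of each member lay between 0.35 and 0.43 in Lane 1, and for the same genes between -0.16 and 0.30 in Lane 2. Lane 1 values took part in the selection, and copies that divide a steadier sum correlate negatively by construction. These libraries share a lane and their values share a library total, and the correlations are given as a description.

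The share of a copy, its expected counts as a percentage of the pair's, separated the pairs into kinds. SMN1 took a median of 82.9% of its pair in Lane 1, 83.8% in Lane 2, 83.2% in Lane 3 and 84.8% in Lane 4, against 68.8% in H1p43 and 81.1% in H1p16. CCZ1 took 76.4%, 76.2%, 76.5% and 73.8% in Lanes 1 to 4, against 69.2% in H1p43 and 69.4% in H1p16. For both pairs, therefore, the first copy took most of the counts in every group. SERF1 had no such common level: the median share of SERF1A was 0% in Lanes 1 and 2, 71.7% in Lane 3 and 63.9% in Lane 4, against 6.58% in H1p43 and 0% in H1p16. CKMT1A had a median share of 50% in Lane 1, 60.2% in Lane 2, 41.6% in Lane 3 and 45% in Lane 4, against 50.6% in H1p43 and 49.5% in H1p16.

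**Figure D2:**
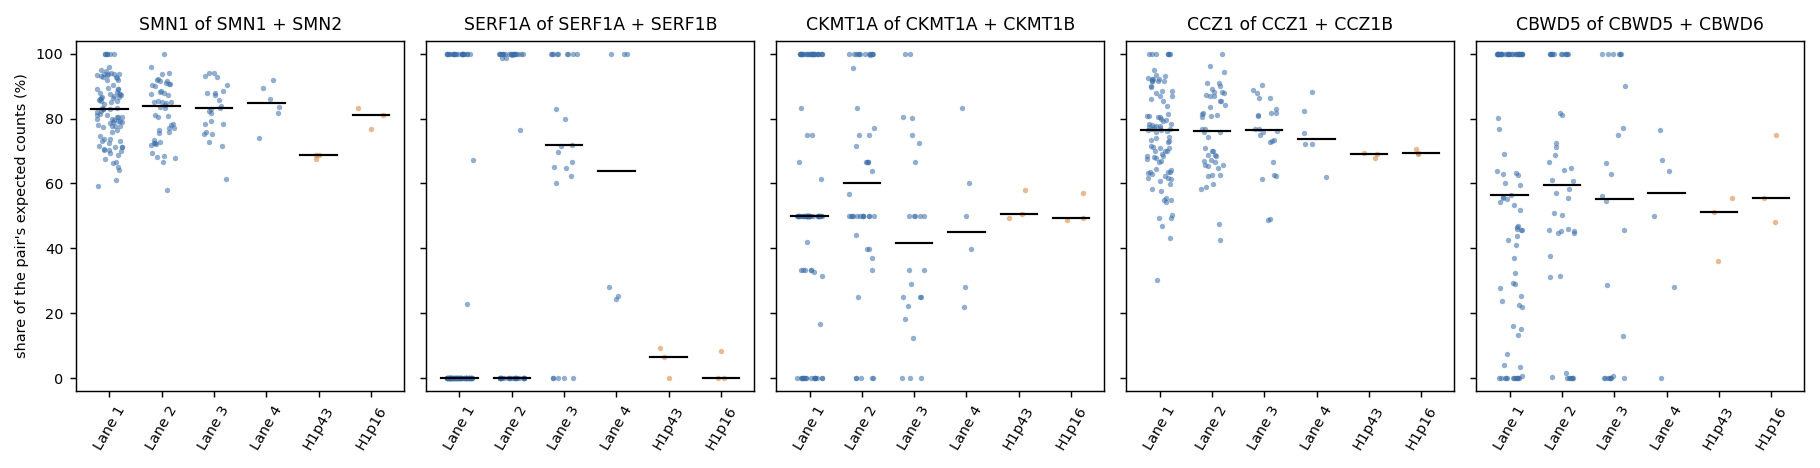
Share of the first copy in the expected counts of its pair (vertical axis, %) in every library with counts, by group; points are libraries, black lines are medians, blue is LM-Seq and orange TruSeq. SERF1A lies at 0% or 100% in nearly all libraries of Lanes 1 and 2, CKMT1A gathers at 0%, 50% and 100% in Lane 1, and the CCZ1 share of the TruSeq libraries stays between 67.8% and 70.5%.

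SERF1A and SERF1B were divided almost entirely to 1 side in the shallow lanes. In Lane 1 SERF1A held over 90% of the pair in 22 libraries and SERF1B in 71, leaving 2 of 95 in between. In Lane 2 the split was 22 and 25, with 1 of 48 in between, and in Lane 3 it was 9 and 5, with 10 of 24 in between. The pair's sum meanwhile averaged 60.8 ± 14.1 TPM in Lane 1, 63.4 TPM in Lane 2, 62.02 TPM in Lane 3 and 57.02 ± 7.03 TPM in Lane 4 (SD). The median library of Lane 1 had 28.45 expected counts for the pair, so that 3 counts made up 10.5% of it. A copy listed at 0 is the estimate of a model for reads that fit both copies. It does not show that RNA of that copy was absent.

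In Lane 4 SERF1A was listed at 18.7, 18.7, 19.3, 58.3, 64.3 and 64.9 TPM, and in the same libraries SERF1B at 37.6, 31.6, 28.6, 0, 0 and 0.03 TPM. The first 3 libraries divided the pair and the other 3 gave all of it to SERF1A, while the sums, between 47.9 and 64.9 TPM, differed far less. SERF1A was listed at 0, 8.77 and 4.74 TPM in H1p43 and at 10.9, 0 and 0 TPM in H1p16. SERF1B was listed at 115.6, 103.99 and 117.2 TPM in H1p43 and at 98.1, 119.7 and 119.7 TPM in H1p16. SERF1B was above every Lane 4 library in all 6 TruSeq libraries, and SERF1A below every Lane 4 library.

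A single expected count, 83.94, recurred for SERF1A. It was listed in 3 of 6 Lane 4 libraries, 1 of 3 H1p43 libraries and 1 of 3 H1p16 libraries, although the SERF1B counts in those 5 libraries ranged from 217 to 1192. Among 13376 genes with at least 1 fractional expected count of 10 or more in these 12 deep libraries, 29 had an equal value (to 2 decimals) in at least 2 libraries, and SERF1A was the 1 gene with an equal value in 3 or more. This count was made after the repeat was noticed. It means that the SERF1A levels of 18.7, 18.7 and 19.3 TPM in Lane 4, 8.77 TPM in H1p43 and 10.9 TPM in H1p16 rest on 1 and the same count.

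CKMT1A and CKMT1B were divided at a few fixed ratios. In Lane 1 the share of CKMT1A lay within 0.5 percentage points of 0, 25, 33.3, 50, 66.7, 75 or 100% in 89 of 95 libraries: 36 were at 50%, 28 at 100%, 17 at 0% and 5 at 33.3%. In Lane 2 this held for 38 of 48, in Lane 3 for 17 of 24, in Lane 4 for 1 of 6 and in the TruSeq groups for 0 of 3 each. In Lane 1 it also held for SERF1A in 93 of 95 libraries, 71 at 0% and 22 at 100%, and for CBWD5 in 46 of the 85 with counts, 33 of them at 100% and 12 at 0%. For SMN1 it held in 9 of 95 and for CCZ1 in 10 of 95. These ratios were chosen after the values were seen. The CKMT1A shares of 60.04%, 39.94% and 83.26% in Lane 4 lie near ratios with larger denominators, which were not counted. The fall from Lane 1 to Lane 4 therefore depends in part on the set of ratios. The sum of CKMT1A and CKMT1B averaged 110.9 ± 15.9 TPM in Lane 1, 112.5 TPM in Lane 2, 112.9 TPM in Lane 3 and 111.8 ± 6.42 TPM in Lane 4 (SD), against 98.04 ± 1.67 TPM in H1p43 and 88.98 ± 0.74 TPM in H1p16.

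**Figure D3:**
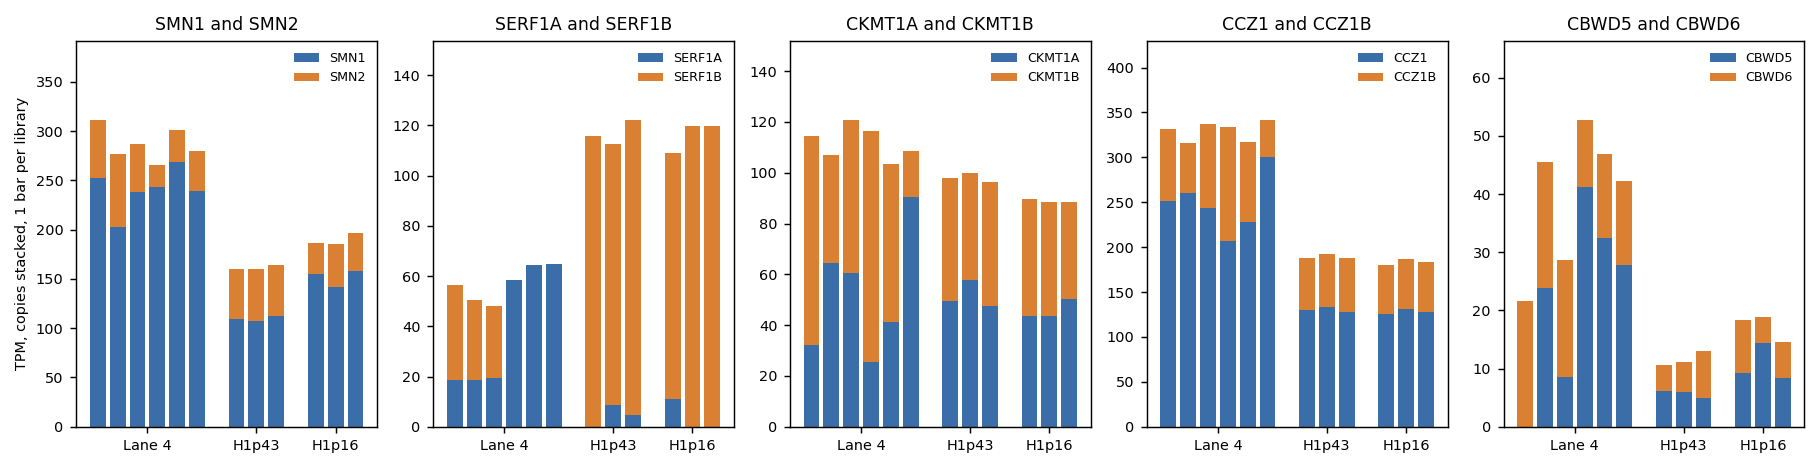
TPM of both copies, stacked, in each Lane 4, H1p43 and H1p16 library (1 bar per library, by replicate number; vertical axes differ between panels). The bar heights of a group are alike for SMN, CKMT1 and CCZ1 while the colour boundary moves in Lane 4, and SERF1 changes colour altogether in 3 Lane 4 bars.

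SMN1, the copy that yields most full-length protein, had 252, 203, 238, 244, 269 and 239 TPM in the 6 libraries of Lane 4, in order of their number, 109.01, 107.1 and 111.98 TPM in H1p43 and 154.6, 141.4 and 158.3 TPM in H1p16. SMN2 had 58.5, 73.99, 48.4, 21.9, 32.6 and 40.2 TPM in Lane 4, 50.7, 52.96 and 52.3 TPM in H1p43 and 32, 44.4 and 38 TPM in H1p16. The 3 groups did not overlap for SMN1, whereas SMN2 in Lane 4 spanned both TruSeq groups. In Lane 1 SMN2 ranged from 0 to 118.6 TPM with a median of 48, and 6 of 95 libraries listed it at 0. SMN1 was at no less than 138.2 TPM there.

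CCZ1 was the more abundant copy of its pair in every deep library. It ranged from 207 to 301 TPM in Lane 4 (median 247), and had 130.2, 133.4 and 127.7 TPM in H1p43 and 125.1, 131.6 and 127.4 TPM in H1p16. CCZ1B ranged from 40.4 to 126.3 TPM in Lane 4 (median 84.4), and had 57.6, 58.8 and 60.3 TPM in H1p43 and 55.5, 54.7 and 55.8 TPM in H1p16. The share of CCZ1 varied with an SD of 9.09 percentage points in Lane 4, 0.84 in H1p43 and 0.74 in H1p16. Independent counts of these sizes would give 0.69, 0.63 and 0.70 if every read told the copies apart. Other genes varied beyond counting in Lane 4: over genes averaging 10 counts or more, the median ratio of chi-square to its degrees of freedom was 5.37 in Lane 4, 0.84 in H1p43 and 1.28 in H1p16. Such a median depends on the number of libraries, 6 in Lane 4 and 3 in each TruSeq group, so these ratios are not on the same scale. For SMN1 the SD of the share was 6.40 points in Lane 4, 0.73 in H1p43 and 3.37 in H1p16. Independent counts would give 0.67, 0.73 and 0.63 under the same condition. That condition is not met, as 88.6% of the 50-base stretches of CCZ1 and 93.3% of those of SMN1 are in the partner model. These values are therefore not the spread that counting alone would give, which was not computed.

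CBWD5 and CBWD6 were low and erratic. CBWD5 had 0, 23.8, 8.61, 41.2, 32.4 and 27.9 TPM in Lane 4, 6.14, 5.96 and 4.97 TPM in H1p43 and 9.26, 14.5 and 8.40 TPM in H1p16. CBWD6 had 21.6, 21.8, 20.1, 11.5, 14.5 and 14.3 TPM in Lane 4, 4.49, 5.21 and 8.05 TPM in H1p43 and 9.08, 4.40 and 6.15 TPM in H1p16. In Lane 1 the pair together was listed at 0 in 10 of 95 libraries. The sum of the 5 CBWD genes stood at 296 ± 28.6 TPM across Lane 1 and at 295 ± 15.3 TPM across Lane 4 (SD), against 133.2 ± 1.38 TPM in H1p43 and 147.4 ± 1.84 TPM in H1p16.

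For 3 of the 5 pairs the sum was more often a whole number than either copy. Over the 95 libraries of Lane 1 the SMN sum was whole, within 0.01, in 79, whereas SMN1 alone and SMN2 alone, within 0.005, were whole in 6 and 7. The CCZ1 sum was whole in 78, CCZ1 alone in 4 and CCZ1B alone in 8. The CKMT1 sum was whole in 93 libraries, with CKMT1A in 60 and CKMT1B in 62. The SERF1 sum was whole in 40, fewer than SERF1A in 78 and SERF1B in 51, of which 71 and 22 were 0. The sum of CBWD5 and CBWD6 was whole in 12, fewer than CBWD5 in 22 and CBWD6 in 44, and the sum of the 5 CBWD genes, within 0.025, in 88.

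LM-Seq libraries carry a 5-digit number that recurs between lanes, but no label states that equal numbers are the same library sequenced again. In the values, libraries with equal numbers deviated together: their deviations from the mean, over genes averaging 50 counts or more in Lane 1, correlated with those in Lane 1 at 0.23 to 0.78 for the 48 numbers of Lane 2, 0.31 to 0.73 for the 24 of Lane 3 and 0.42 to 0.56 for the 6 of Lane 4. Libraries with different numbers were not compared in this way, so these values do not show that equal numbers mark the same library. Taking over 90%, under 10% or between as classes, 24 of 48 numbers kept the class of SERF1 between Lanes 1 and 2, and 23 changed to the other copy. For CKMT1 25 of 48 kept their class and 2 changed to the other copy, and 20 of 40 with counts in both lanes did so for CBWD5, with 4 switching. For SMN 35 of 48 kept their class and for CCZ1 37 of 48. No library of these lanes had SMN1 or CCZ1 under 10%, so a change to the other copy could not occur. How many numbers would keep their class without any tie to the number was not computed, so these counts alone show no stability. Between Lanes 1 and 2 the share of a number differed by a median of 5.49 percentage points for SMN1, 14.5 for CCZ1, 21.6 for CKMT1A and 29.5 for CBWD5.

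For SMN and CCZ1, whose shares did not fall into separate clusters, the share of a number could be correlated between lanes. Both pairs were taken for this after their shares had been seen. The selection did not use the values of Lanes 3 and 2 themselves. Between these lanes the SMN1 share correlated with r = 0.69 and rho = 0.69 over 24 numbers (permutation p = 0.00012 and 0.0003, adjusted over 6 relations 0.00072 and 0.0018). The same numbers occur in Lane 1, whose values took part in the selection, so the p-values given here are not free of it. Relations with Lane 1 are given as a description: r was 0.47 and rho 0.44 between Lanes 2 and 1 over 48 numbers, and r was 0.63 and rho 0.62 between Lanes 3 and 1 over 24 numbers. Without the 2 numbers farthest from the median, r was 0.64 between Lanes 3 and 2, 0.51 between Lanes 2 and 1 and 0.58 between Lanes 3 and 1. For CCZ1 between Lanes 3 and 2 r was 0.24 and rho 0.28 (permutation p = 0.255 and 0.179, adjusted 0.255 and 0.269), and r was 0.20 without the 2 farthest numbers. With Lane 1, r was 0.21 for Lane 2 and 0.27 for Lane 3, and rho 0.17 and 0.06. Each relation is within the LM-Seq protocol, and the pairs of lanes share libraries with each other.

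**Figure D4:**
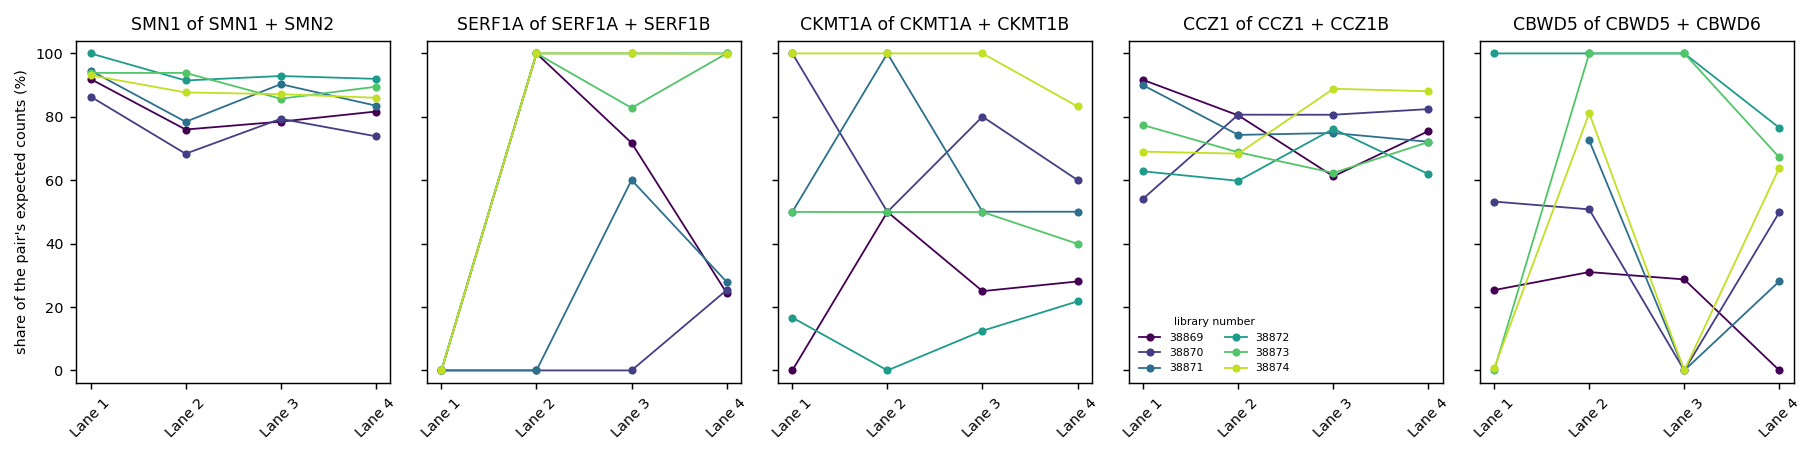
Share of the first copy (vertical axis, %) for the 6 library numbers present in all 4 LM-Seq lanes, from the shallowest (Lane 1) to the deepest (Lane 4); 1 line per number, and no point where a pair had 0 counts. SMN1 lines stay between 68.4% and 100%, whereas SERF1A lines start at 0% in Lane 1 and end at 24.4% to 27.9% or at 99.9% to 100% in Lane 4.

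Over those 6 numbers every copy moved further between Lane 4 and Lane 1 than its pair's sum, in mean log2(TPM + 1). Lane 4 had 45.9 ± 18.7 TPM of SMN2 and Lane 1 had 19.2 ± 11.8 TPM, while SMN1 was at 241 ± 21.8 TPM in Lane 4 and at 265 ± 21.9 TPM in Lane 1 (SD, n = 6 each). The sum came to 287 ± 16.7 TPM in Lane 4 and to 284 ± 13.5 TPM in Lane 1, a mean difference of 0.01 on the log2 scale with an SD of 0.08. The mean log2 difference was 0.02 for the CKMT1 sum, 0.09 for the CCZ1 sum, -0.16 for the SERF1 sum and 0.01 for the sum of the 5 CBWD genes. For the sum of CBWD5 and CBWD6 it was 0.68 with an SD of 2.25, and the pair was higher in Lane 4 for 3 of 6 numbers.

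H1p43 was compared with H1p16 within the TruSeq protocol, by edgeR's quasi-likelihood test with Benjamini-Hochberg adjustment over all genes tested. All 10 copies passed the filter on low counts, and 5 were called at an adjusted p below 0.05, where 71.8% of all 14574 genes tested were called. Of the 5 sums, tested in a table in which each pair was 1 gene, 4 were called, again with 71.8% called over all genes. Of the copies 1 rose and 4 fell, and the median log2 fold change of the 10 was -0.05, against 0.01 for all genes. In bulk RNA fewer cells of a type and less RNA per cell cannot be told apart.

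SMN1 fell by 0.58 ± 0.04 on the log2 scale in H1p43 (SE, adjusted p = 1.61e-10) and SMN2 rose by 0.32 ± 0.07 (adjusted p = 0.000689). The 3 libraries of H1p43 lay below all 3 of H1p16 for SMN1 and above all 3 for SMN2. The sum averaged 161.4 ± 2.53 TPM in H1p43 and 190 ± 5.85 TPM in H1p16 (SD, n = 3 each) and fell by 0.35 ± 0.03 (SE, adjusted p = 4.48e-09). The share of SMN1 averaged 68.5 ± 0.73% in H1p43 and 80.4 ± 3.37% in H1p16, without overlap. The exact two-sided permutation test gave p = 0.1, the smallest that 3 against 3 allows, and an adjusted p of 0.5 over the 5 pairs. Without replicate 1 of H1p16 the log2 fold change of SMN2 was 0.21.

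For SERF1 and CCZ1 the calls depended on the scale. SERF1B fell by 0.19 ± 0.06 (SE, adjusted p = 0.00583) and the SERF1 sum by 0.14 ± 0.04 (adjusted p = 0.00639), but in limma on log2(TPM + 1) both values were slightly positive, 0.00 and 0.01 with adjusted p of 0.985 and 0.857. Without replicate 2 of H1p16 SERF1B had an adjusted p of 0.0504. SERF1A had a log2 fold change of 1.11 ± 0.89 (adjusted p = 0.271) with 1 of 3 H1p43 libraries and 2 of 3 H1p16 libraries at 0. Without replicate 1 of H1p16, which leaves H1p16 at 0, it was called (adjusted p = 0.00012). CCZ1 fell by 0.09 ± 0.03 (adjusted p = 0.0171) and the CCZ1 sum by 0.06 ± 0.03 (adjusted p = 0.0311), while CCZ1B was at -0.02 ± 0.04 (adjusted p = 0.632). In limma on log2(TPM + 1), where 64.18% of all calls were higher in H1p43 against 50.72% in edgeR, CCZ1 was at 0.03 and the sum at 0.05, neither called. The calls of CCZ1 and of the sum were lost without replicate 2 of H1p16, without replicate 1 of H1p43 or without replicate 3 of H1p43, with adjusted p between 0.0514 and 0.119.

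CKMT1A, CKMT1B and their sum had log2 fold changes of 0.05 ± 0.07, 0.01 ± 0.06 and 0.03 ± 0.03 in H1p43 (SE, adjusted p = 0.49, 0.936 and 0.382), and in limma on log2(TPM + 1) the sum was at 0.14 and called (adjusted p = 0.000582). CBWD5 fell by 1.05 ± 0.16 (adjusted p = 1.69e-05), CBWD6 was at -0.20 ± 0.21 (adjusted p = 0.405) and their sum fell by 0.65 ± 0.10 (adjusted p = 6.75e-06). The sum of the 5 CBWD genes fell by 0.25 ± 0.03 (adjusted p = 2.03e-07), and was -0.15 in limma on log2(TPM + 1). Without replicate 3 of H1p43 CBWD6 was called at -0.51 (adjusted p = 0.0429). The shares of SERF1A, CKMT1A, CCZ1 and CBWD5 gave exact permutation p of 0.7, 0.6, 0.3 and 0.4 (adjusted 0.7, 0.7, 0.667 and 0.667). Markers of pluripotent cells moved with these groups: their summed level was 5963 to 5982 TPM in H1p43 and 7563 to 7775 TPM in H1p16, with 7 of 7 called lower. Fibroblast or stroma markers summed to 407 to 429.8 TPM in H1p43 and 289 to 298 TPM in H1p16, with 3 of the 4 tested called higher and 1 lower, and mesoderm markers to 41.2 to 41.8 TPM and 73.8 to 76.6 TPM, with the 1 tested called lower. Neuroectoderm markers summed to 148.5 to 150.4 TPM in H1p43 and 145.6 to 154.5 TPM in H1p16, with 3 of the 4 tested called higher and 1 lower. The part of these markers in the results was not tested.

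**Figure D5:**
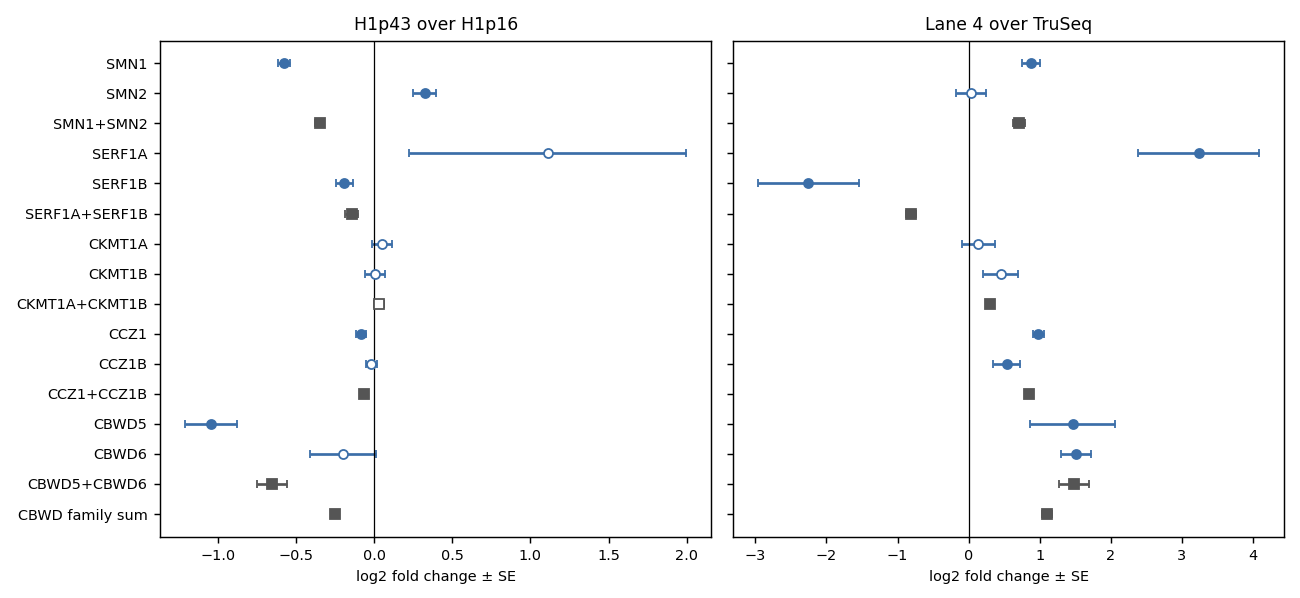
Log2 fold changes with SE (horizontal axes) of each copy (circles) and each sum (squares) for H1p43 over H1p16 and for Lane 4 over TruSeq, by edgeR; filled symbols had an adjusted p below 0.05, a description only for the copies in Lane 4. Sums carry shorter error bars than the copies of the same pair, and SERF1A and SERF1B lie on opposite sides of 0 in the comparison of Lane 4 with TruSeq.

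Lane 4 was compared with all 6 TruSeq libraries, the LM-Seq lane nearest in depth; protocol, lane and culture cannot be told apart in this contrast. The Lane 4 levels of the copies took part in the selection of the pairs, so the copies and shares are described with no p. The sums are tested, but they hold the same Lane 4 values, and their p-values are not free of the selection. This applies most to the sum of CBWD5 and CBWD6, which varied nearly as its copies did, with an SD of log2(TPM + 1) of 1.86 in Lane 1. Of the 5 sums all 5 were called, 4 higher and 1 lower, with 71.3% called over all genes. Of the 10 copies 7 passed the same threshold, where 71.3% of 13827 genes did, and nothing is read from that count. The median log2 fold change of the 10 copies was 0.705, against -0.06 for all genes. Nothing is read from this median either, because Lane 4 levels of the copies took part in the selection. The SMN sum rose by 0.71 ± 0.08 (SE, edgeR adjusted p = 1.03e-06), with SMN1 at 0.87 ± 0.12 and SMN2 at 0.03 ± 0.21. The CCZ1 sum rose by 0.86 ± 0.05 (adjusted p = 9.33e-11), with CCZ1 at 0.98 ± 0.08 and CCZ1B at 0.54 ± 0.19.

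SERF1 was the 1 pair whose sum was lower in Lane 4. It averaged 57.02 ± 7.03 TPM in Lane 4 (SD, n = 6), and 116.8 ± 4.71 TPM in H1p43 and 116.1 ± 6.13 TPM in H1p16 (n = 3 each), and fell by 0.81 ± 0.07 (SE, adjusted p = 5.84e-08). Its copies lay on opposite sides of 0, SERF1A at 3.24 ± 0.85 and SERF1B at -2.25 ± 0.71, or -4.28 in limma on log2(TPM + 1). The share of SERF1A averaged 62.9 ± 40.6% in Lane 4 and 4.05 ± 4.53% in TruSeq, without overlap. In Lane 1 the share averaged 24.1%.

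The CKMT1 sum rose by 0.30 ± 0.05 in Lane 4 (SE, adjusted p = 8.07e-05), with CKMT1A at 0.14 ± 0.23 and CKMT1B at 0.45 ± 0.25. The sum of CBWD5 and CBWD6 rose by 1.48 ± 0.21 (adjusted p = 8.99e-06) and the 5 CBWD genes together by 1.11 ± 0.07 (adjusted p = 6.33e-10). The p of the pair's sum is not free of the selection, and the sum of 5 genes was chosen after the data were seen. CBWD5 was at 1.46 ± 0.59, or 0.74 in limma on log2(TPM + 1), and CBWD6 at 1.51 ± 0.22. The share of SMN1 averaged 84.4 ± 6.40% in Lane 4 and 74.4 ± 6.88% in TruSeq. The TruSeq mean joins groups that differed, with 68.5% in H1p43 and 80.4% in H1p16. The difference of Lane 4 was 15.96 points against H1p43 alone and 4.05 points against H1p16 alone. For CCZ1 the share averaged 75.4 ± 9.09% and 69.2 ± 0.87% in Lane 4 and TruSeq. The CKMT1A share averaged 47.2 ± 22.5% in Lane 4 and 52.2 ± 4.15% in TruSeq, and the CBWD5 share 47.6 ± 28.8% and 53.6 ± 12.7%.

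Genes that work with the members were described by count beside the background. Of 15 genes of the SMN complex and the Sm ring that were tested, 12 fell and 1 rose in H1p43, where 71.8% of all 14574 genes were called, 5155 lower and 5305 higher. The median log2 fold change of the 15 was -0.21, against 0.01 for all genes. For 3 of the 12 mean TPM was not lower: STRAP averaged 348.9 TPM in H1p43 and 345.3 TPM in H1p16, SNRPF 495.2 and 494.6 TPM, and SNRPG 519.1 and 518.1 TPM. DDX20, the DEAD-box subunit of the complex, averaged 28.1 ± 0.65 TPM in H1p43 and 42.03 ± 0.32 TPM in H1p16 (SD, n = 3 each; -0.69 ± 0.03, SE, edgeR adjusted p = 3.49e-12). GEMIN5, which recognises the small nuclear RNAs, averaged 29.5 ± 0.18 and 41.03 ± 0.97 TPM in H1p43 and H1p16 (-0.59 ± 0.03, adjusted p = 8.56e-12). GEMIN8 was the 1 that rose (0.58 ± 0.06, adjusted p = 1.3e-07). In Lane 4 against TruSeq 6 of the 15 rose and 6 fell, where 71.3% of all genes were called, with a median of 0.17 against -0.06 for all genes.

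Of 5 creatine genes tested 2 rose and 2 fell in H1p43, and 3 fell in Lane 4, where 71.8% and 71.3% of all genes were called. GATM, which makes the precursor of creatine, rose by 0.68 ± 0.06 in H1p43 (SE, edgeR adjusted p = 3.4e-08), and SLC6A8, the creatine transporter, fell by 0.38 ± 0.03 (adjusted p = 2.27e-09). Of 7 genes of the MON1-CCZ1 and RAB7 step 1 rose and 4 fell in H1p43, including MON1A (-0.37 ± 0.07, adjusted p = 0.000142), and 2 rose and 3 fell in Lane 4, including RAB7A (0.59 ± 0.04, adjusted p = 3.65e-09), shares of this list near those same percentages of all genes. SERF2, a relative of SERF1 outside the duplicated segment, fell by 2.15 ± 0.05 in Lane 4 (adjusted p = 1.33e-14) and was at 0.03 ± 0.02 in H1p43 (adjusted p = 0.22).

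Among neighbours in the same duplicated segments, 3 of 7 rose and 4 fell in H1p43, and 3 of 6 rose and 0 fell in Lane 4, against 71.8% and 71.3% of all genes called. GTF2H2C and GTF2H2D, near-identical subunit genes of the transcription factor TFIIH beside SMN, are a further pair that can share reads. GTF2H2C averaged 52.04 ± 9.51 TPM in Lane 4 (SD, n = 6), and 3.55 ± 1.45 TPM in H1p43 and 4.72 ± 0.76 TPM in H1p16 (n = 3 each), a log2 fold change of 3.70 ± 0.20 for Lane 4 over TruSeq (SE, adjusted p = 1.07e-10). GTF2H2D averaged 41.04 ± 5.10 TPM in Lane 4, and 38.01 ± 3.02 TPM in H1p43 and 52.1 ± 2.37 TPM in H1p16 (-0.11 ± 0.13, adjusted p = 0.491).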

How the data were processed

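RNA of H1 cells was sequenced in 173 LM-Seq and 6 TruSeq libraries. The submitters' processing notes name CASAVA 1.8.2, Bowtie 0.12.8, hg19 and RSEM 1.2.3. The authors deposited expected counts and TPM for 19084 genes. Strand use in counting and read length are not given in the sources used here, so genes overlapping the members are uncertain. Groups follow the titles.

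Expected counts were rounded and tested with edgeR 4.0.16 (quasi-likelihood, filterByExpr, TMM; R 4.3.3), for copies and again with each pair replaced by its sum. SEs come from the fold change and its F statistic. Shares were compared between H1p43 and H1p16 by exact permutation. Alternatives used limma 3.58.1, DESeq2 1.42.0, other scalings, filters, lanes and omitted libraries. All members, and the 3 genes of a list with the lowest adjusted p, were eligible to be named; GEMIN8 and MON1A in H1p43, the second comparison given for SERF2 and GTF2H2D, and the other near-identical pairs fall outside that rule and were named with their values known, as were STRAP, SNRPF and SNRPG. The members and lists were chosen with earlier results of these data known. Transcript models were aligned with Biopython 1.88.

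On simulated counts 97 of 100 genes changed 2-fold were recovered for each comparison, and of 100 changed 1.5-fold 83 for H1p43 against H1p16 and 71 for Lane 4 against TruSeq, over 14574 genes for H1p43 against H1p16 and over 13827 for Lane 4 against TruSeq. Libraries of a group differed by more than sampling noise, the lowest ratio of chi-square to its degrees of freedom being 1.29. Intervals and floors cover counting error only.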

Additional observations from a re-analysis of the deposited data

How the results depend on the processing

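In limma on log2(TPM + 1), with or without a filter, several small differences between H1p43 and H1p16 changed sign: the SERF1 sum was 0.00881, the CCZ1 sum 0.0456, CCZ1B 0.0881, SERF1B 0.00155 and CCZ1 0.0263. With a pseudocount of 0.1 these were 0.00889, 0.0458, 0.0895, 0.00159 and 0.0265. CKMT1B was -0.0026 with RLE size factors and -0.0128 in DESeq2. For Lane 4 against TruSeq SMN2 was -0.00253 without a filter, -0.0527 in limma, -0.0557 with the pseudocount of 0.1 and -0.115 against H1p43 alone. CKMT1A was -0.0237 in limma, -0.0266 with the pseudocount of 0.1 and -0.0321 with Lane 3 in place of Lane 4, and CKMT1B was -0.107 with Lane 2. The difference in the CKMT1A share was 9.95 points with Lane 2 and 3.06 with Lane 1. The difference in the CBWD5 share was 0.0703 points against H1p43 alone, 4.14 with Lane 2 and 4.65 with Lane 1. None of these values belonged to a call in edgeR except SERF1B, CCZ1 and the sums of SERF1 and CCZ1, and the cause was not tested.

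Leaving out 1 library at a time, log2 fold changes of H1p43 over H1p16 ranged from -0.507 to 0.0742 for CBWD6, from -0.0759 to 0.0679 for CKMT1B and from -0.0336 to 0.119 for CKMT1A. For Lane 4 over TruSeq they ranged from -0.161 to 0.164 for SMN2 and from -0.108 to 0.27 for CKMT1A. The CKMT1A share difference ranged from -1.68 to 3.599 points between H1p43 and H1p16 and from -12.2 to 0.0664 points between Lane 4 and TruSeq, and that of CBWD5 from -11.7 to 3.58 points. Between 3 (without replicate 2 of H1p16) and 6 copies were called for H1p43 against H1p16. For Lane 4 against TruSeq, where nothing is read from the count of shares past the threshold, it was 1 of 5, between 1 and 2 with a library left out, and 0 against H1p16 alone, against H1p43 alone, with Lane 2 or with Lane 1. Over 80% of the pair was held by 1 copy in 57 of 95 Lane 1 libraries for SMN and 33 for CCZ1, and over 95% in 8 and 7.

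With the replicate number as a block, 5 copies and 4 sums were again called between H1p43 and H1p16, the SMN sum at -0.35, and no call of a copy or sum changed; over all genes 10463 were called. Deviations of same-numbered libraries correlated at 0.0702, 0.00667 and 0.0479, so the numbers were not taken to pair the libraries. Depth limited the SERF1 and CBWD pairs most in Lane 1, with 28.45 and 30.22 counts in the median library, and the CBWD pair had the fewest in H1p43 and H1p16.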

Other observations

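Values of other near-identical pairs follow, with no test of a difference between pairs. MAGED4 was listed at 0 in all 6 libraries of Lane 4 and all 95 of Lane 1, and had 31.6 ± 0.52 TPM in H1p43 and 24.1 ± 3.23 TPM in H1p16 (SD, n = 3 each). MAGED4B, its near-identical partner, averaged 99.8 ± 2.70 TPM in Lane 4, 77.8 ± 2.16 TPM in H1p43 and 92.4 ± 4.36 TPM in H1p16. BOLA2 and BOLA2B had equal SDs of log2(TPM + 1) in Lane 1, 0.20 each, as had SLX1A and SLX1B, 0.52 each, and SULT1A3 and SULT1A4, 0.56 each. RGPD5 or RGPD6 held over 90% of their pair in 49 of 94 Lane 1 libraries with counts. Of 10 other pairs with a mean sum of at least 1 TPM in Lane 1, 5 had both copies more spread than their sum.

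The sum of the 5 CBWD genes, chosen after the data were seen, correlated across Lane 1 with HNRNPA1, NASP and SLC39A14 at 0.65, 0.61 and -0.62, and across Lane 2 at 0.70, 0.67 and -0.63. These libraries share a lane and a scaling to the library total, and the correlations are a description.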
